A study of Mus musculus with 25 samples.

Results

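The 10 genes described here encode acute phase proteins of the mouse and their feedback inhibitor: Saa1, Saa2, Saa3, Orm1, Orm2, Orm3, Lcn2, Hp, Apcs and Socs3. They were chosen by symbol, and each symbol matched 1 of the 48795 gene identifiers in the deposited tables. Their levels were followed by poly-A RNA sequencing in 25 libraries from male C57BL/6J mice. DEN mice received the liver carcinogen diethylnitrosamine (25 mg/kg, into the peritoneum) at 2 weeks of age, nonDEN mice were left untreated, and each mouse ate a control diet (CD) or a western-type diet (WD) from weaning until 36 to 39 weeks of age. Liver (L) was taken from nonDEN-L-CD (n = 3), nonDEN-L-WD (n = 4) and DEN-L-CD (n = 4) mice, while the DEN mice on WD gave tissue beside tumors (DEN-PT-WD, n = 8) and tumor tissue (DEN-T-WD, n = 6). Tumor tissue was sampled only from DEN mice on WD. Tumor state and that combination of carcinogen and diet therefore cannot be told apart when DEN-T-WD is set against the livers. The paper states that tumors of DEN mice on CD were too small to part reliably from the tissue around them. DEN-L-CD may therefore hold small tumors, while tumors were cut away from DEN-PT-WD. Whole tissue was sequenced, so fewer cells of a type and less RNA per cell cannot be told apart.

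The acute phase response is the switch in hepatocyte secretion that follows infection, injury or tissue damage. Interleukin 6 acts through STAT3 and interleukin 1 through NF-kB, and together with C/EBP factors they raise transcription of genes for secreted plasma proteins. SOCS3 is made in response to STAT3 and damps the same receptor signal. Serum amyloid A and orosomucoid can rise very steeply in mouse liver, haptoglobin (Hp) is already abundant at rest, and the pentraxin serum amyloid P (Apcs) takes in the mouse a place like that of C-reactive protein in humans.

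Members of the serum amyloid A and orosomucoid families sit side by side in the genome (GRCm38, GENCODE). Saa3 (chr7:46711998-46715700, minus strand), Saa1 (chr7:46740497-46742980, minus strand) and Saa2 (chr7:46751790-46754313, plus strand) lie within 42.3 kb, with Saa1 and Saa2 pointing away from each other across 8.8 kb. Orm1 (chr4:63344560-63348163), Orm3 (chr4:63356162-63359511) and Orm2 (chr4:63362449-63365878) lie within 21.3 kb on the plus strand. The other genes stand alone: Lcn2 on chr2:32384633-32388252, Hp on chr8:109575128-109579172, Apcs on chr1:172893961-172895041 and Socs3 on chr11:117966079-117970047, all on the minus strand.

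The paralogs share transcript sequence, which matters for how reads are divided between them. Of the 50-base words in annotated transcripts, 31.5% of those of Saa1 occurred in another gene, nearly all of them in Saa2, against 30.0% for Saa2, 20.4% for Orm1 and 22.7% for Orm2. The shares were 3.6% for both Saa3 and Orm3, and no word of Lcn2, Hp, Apcs or Socs3 was shared. Values of Saa1 against Saa2, and of the Orm genes against each other, are therefore uncertain to the extent that reads were split by estimate.

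The stretches before the transcription start are shown for 5 members. They set 2 pairs of similar neighbours, Saa1 with Saa2 and Orm2 with Orm3, beside Apcs, which stands alone. RefSeq promoter windows (GRCm38.p6) were matched for 8 of the 10 members, all but Orm1 and Hp, and the 250 bases upstream of each start were searched on both strands. The searched letters were TTGCNCAA for C/EBP, TTCNNNGAA for STAT and, for NF-kB, GGG and TTTCC with 2 free bases between them, chosen after these windows had been read. Capitals mark a match, the sequences run 5′ to 3′ along the gene, and positions count back from -1, the base before the start. Saa1 is chr7:46742981-46743230 (minus strand), Saa2 chr7:46751583-46751789 (plus strand, shown up to base -44, where an annotated exon begins), Orm2 chr4:63362199-63362448 (plus strand), Orm3 chr4:63355908-63356157 (plus strand) and Apcs chr1:172895055-172895304 (minus strand).
Saa1: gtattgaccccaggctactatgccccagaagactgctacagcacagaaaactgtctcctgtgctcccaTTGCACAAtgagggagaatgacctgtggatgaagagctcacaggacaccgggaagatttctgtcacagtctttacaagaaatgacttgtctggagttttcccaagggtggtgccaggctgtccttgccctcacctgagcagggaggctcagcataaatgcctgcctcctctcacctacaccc
Saa2: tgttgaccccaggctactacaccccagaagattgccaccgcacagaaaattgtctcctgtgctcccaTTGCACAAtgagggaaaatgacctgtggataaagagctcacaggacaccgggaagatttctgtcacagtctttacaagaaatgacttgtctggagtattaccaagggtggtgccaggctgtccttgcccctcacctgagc
Orm2: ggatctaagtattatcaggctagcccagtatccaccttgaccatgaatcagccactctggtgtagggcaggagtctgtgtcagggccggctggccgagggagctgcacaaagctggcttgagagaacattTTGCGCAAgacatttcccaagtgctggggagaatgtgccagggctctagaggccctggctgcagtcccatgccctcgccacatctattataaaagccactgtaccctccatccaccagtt
Orm3: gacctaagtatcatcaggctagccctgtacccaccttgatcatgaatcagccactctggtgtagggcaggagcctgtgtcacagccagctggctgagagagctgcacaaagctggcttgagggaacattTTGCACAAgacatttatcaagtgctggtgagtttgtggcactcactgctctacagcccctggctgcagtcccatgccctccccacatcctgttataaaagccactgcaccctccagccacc
Apcs: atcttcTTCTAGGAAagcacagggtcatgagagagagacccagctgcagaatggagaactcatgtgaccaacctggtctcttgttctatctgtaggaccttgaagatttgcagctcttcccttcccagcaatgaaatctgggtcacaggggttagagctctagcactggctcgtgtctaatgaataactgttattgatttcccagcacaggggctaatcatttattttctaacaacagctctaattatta

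The C/EBP letters stood at base -182 of Saa1, -183 of Saa2, -120 of Orm2, -121 of Orm3 and -216 of Lcn2, as 1 match each. They occurred in 2.61% of 32851 RefSeq promoter windows. The STAT letters, found in 7.02% of windows, stood at base -244 of Apcs and at base -154 of Socs3. The NF-kB letters, found in 1.41% of windows, had no match in the 8 members, which says only that these letters are not in these windows. The upstream stretches of Saa1 and Saa2 were 94.8% identical and those of Orm2 and Orm3 85.9%, so the C/EBP matches within each pair are not independent. Saa1 and Saa3 shared 52.5%, no more than Saa1 shared with Orm2 (54.2%) or Lcn2 (54.8%).

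Libraries held 21.5 to 38.1 expected counts in units of 1000000 (median 27.6), and all 10 members passed the filter on low counts, as did 15625 genes in all. All 6 hepatocyte markers were detected in each group. Their summed level was 38268 normalized CPM (counts scaled to TMM library sizes) in DEN-T-WD 5, against 115776 to 153616 in the other tumors. Pancreas acinar transcripts ran from 0.208 to 3176 summed CPM over the libraries. A gene is said to have risen or fallen where edgeR's quasi-likelihood test gave an adjusted p of at most 0.05 and a change of at least 2-fold. The labels do not say whether samples came from separate mice, so p-values measure the spread between these samples.

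**Figure D1:**
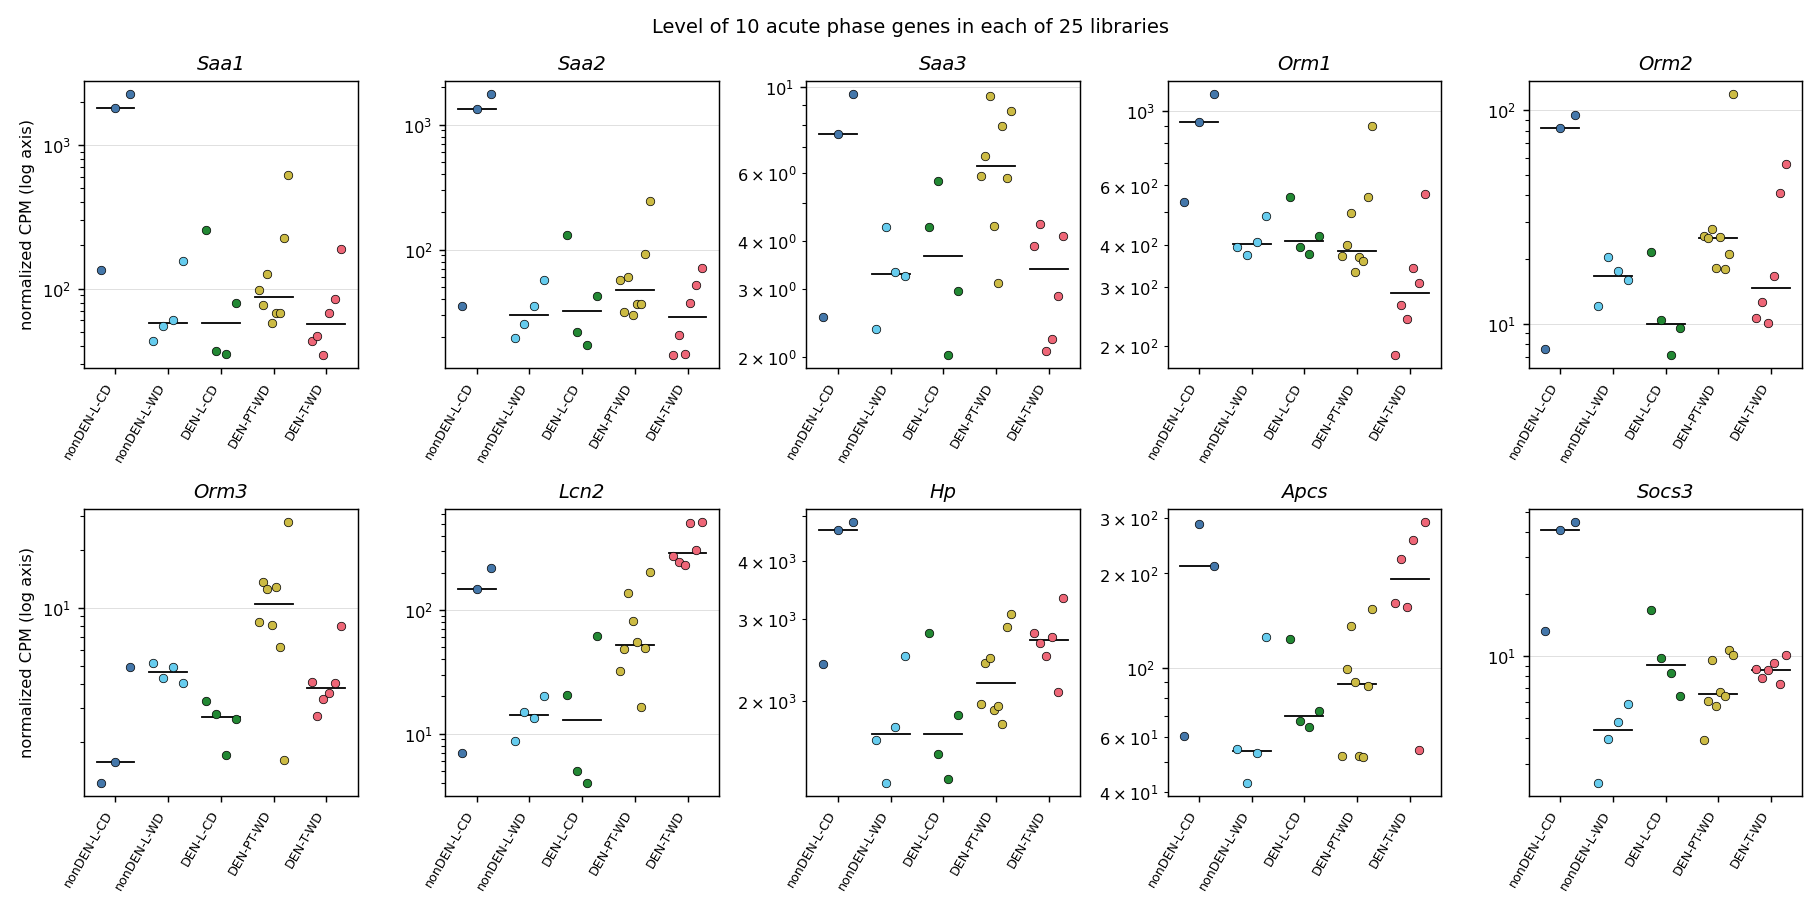
Normalized CPM (log axis) of the 10 members in the 25 libraries, 1 panel a gene and 1 point a library, in replicate order within each group, with a bar at the group median. Replicates 2 and 3 of nonDEN-L-CD stood far above replicate 1 for Saa1, Saa2, Orm2 and Lcn2, and Lcn2 was at 230 to 517 CPM in the 6 tumors.

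Per transcript length, the members spanned orders of magnitude in the same tissue. In nonDEN-L-WD, mean TPM (a length-corrected share of transcripts) was 1970 for Hp, 790 for Orm1, 186 for Saa1, 99.2 for Apcs and 86.0 for Saa2. It was 31.9 for Orm2, 22.6 for Lcn2, 9.07 for Saa3, 8.91 for Orm3 and 2.62 for Socs3, which encodes an intracellular regulator and not a plasma protein. Together the 10 genes made up 0.321% ± 0.0452 (SD, n = 4) of all TPM in nonDEN-L-WD and 0.325% ± 0.11 (n = 4) in DEN-L-CD, against 0.515% ± 0.184 (n = 8) in DEN-PT-WD and 0.607% ± 0.144 (n = 6) in DEN-T-WD. In nonDEN-L-CD the share was 1.17% ± 0.699 (n = 3), from 0.365% to 1.65%.

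In nonDEN-L-CD, replicate 1 stood apart from replicates 2 and 3 for the members other than Orm3, and each comparison with that group rests on this. Replicates 2 and 3 were above replicate 1 for all 10 members, so results against nonDEN-L-CD were also computed with replicate 1 as its lone library, a setting chosen after the values were seen in which that library is assumed to vary like the other groups. A group of 1 library gives little power, so a call lost in this setting does not show that a difference is absent. In nonDEN-L-WD the log2 fold changes were then -0.77 for Saa1, -0.04 for Saa2, -0.36 for Orm1 and 1.06 for Lcn2. They were -0.40 for Hp, 0.20 for Apcs and -1.62 for Socs3. In DEN-L-CD they were -0.40 for Saa1, 0.59 for Saa2, 0.69 for Orm2, 1.73 for Lcn2, -0.34 for Hp and -0.35 for Socs3. Nothing in the labels sets these libraries apart.

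Serum amyloid A was highest in the untreated livers on control diet, and there it was split between libraries. Saa1, a major circulating form, was at 135, 1811 and 2260 CPM in replicates 1, 2 and 3 of nonDEN-L-CD, and at 43.5, 55.0, 60.3 and 156 CPM in nonDEN-L-WD. Replicate 1 fell inside the range of the WD livers, and replicates 2 and 3 were more than any other library of the series. Saa1 was 17.8-fold lower in nonDEN-L-WD (log2 fold change -4.15 ± 0.96 SE, adjusted p = 0.00362).

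Saa1 was low in the other groups as well. DEN-L-CD libraries held 254, 36.7, 35.2 and 79.1 CPM of Saa1, a 13.8-fold lower level than nonDEN-L-CD (log2 fold change -3.79 ± 0.95 SE, adjusted p = 0.00642), or 27.8-fold without DEN-L-CD 1 (-4.80). DEN-PT-WD ran from 57.8 to 620 CPM with a median of 87.6, and DEN-T-WD from 34.3 to 188 with a median of 57.0. Both fell against nonDEN-L-CD (log2 fold changes of -3.07 and -4.18, adjusted p = 0.00168 and 0.000186), and the first was -3.80 without DEN-PT-WD 8. Saa1 in tumors and in tissue beside them overlapped and did not pass the test (log2 fold change -1.11, 95% interval -2.45 to 0.23, adjusted p = 0.189).

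Saa2, the close neighbour of Saa1, broadly followed it across the libraries. It was at 35.5, 1339 and 1751 CPM in nonDEN-L-CD and at 19.7, 25.4, 35.2 and 57.3 CPM in nonDEN-L-WD, a 30.3-fold difference (log2 fold change -4.92 ± 1.00 SE, adjusted p = 0.0013). DEN-L-CD held 131, 22.2, 17.1 and 42.6 CPM of Saa2, with the highest value in the same library as for Saa1. Over the 25 libraries, Pearson's r between log2 CPM of Saa1 and Saa2 was 0.98, a figure that the reads they share can raise. By TPM, Saa2 was at 0.293 times Saa1 in nonDEN-L-CD 1, against 0.782 and 0.826 times in replicates 2 and 3. Summing the counts of both genes gave a log2 fold change of -4.43 in the WD livers. The fold of Saa2 in WD liver was -5.51 without nonDEN-L-CD 1 and -4.32 without nonDEN-L-CD 3. Saa2 also fell in DEN-L-CD (-4.29 ± 0.97 SE, adjusted p = 0.00317; -3.69 without nonDEN-L-CD 3 and -5.25 without DEN-L-CD 1).

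Saa3, the family member also made outside hepatocytes, for example by macrophages and fat cells, stayed low and moved less. It was at 2.54, 7.56 and 9.60 CPM in nonDEN-L-CD and between 2.36 and 4.34 CPM in nonDEN-L-WD (log2 fold change -0.99, adjusted p = 0.0773, not called). In DEN-PT-WD it ran from 3.10 to 9.50 CPM with a median of 6.26, against 2.07 to 4.42 CPM with a median of 3.38 in DEN-T-WD. That difference passed the test for p but stopped just short of 2-fold (log2 fold change -0.99 ± 0.29 SE, adjusted p = 0.00946). Of 6 markers of macrophages and Kupffer cells, 2 (Clec4f and Timd4) fell in that comparison, where 3.09% of all genes fell, and the summed level of the 6 overlapped between DEN-PT-WD (178 to 364 CPM) and DEN-T-WD (130 to 235). Their part in the result was not tested. Against nonDEN-L-CD, Saa3 fell in tumors (-1.01 ± 0.36 SE, adjusted p = 0.0221), a call lost without any of nonDEN-L-CD 2 or 3 and DEN-T-WD 3, 4 or 5 (-0.97 to -0.63, adjusted p = 0.0347 to 0.212).

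Orosomucoids, acid glycoproteins that bind drugs and lipids in plasma, differed among themselves. Orm1, the most abundant by TPM in each group, was at 536, 928 and 1121 CPM in nonDEN-L-CD and at 395, 374, 409 and 487 CPM in nonDEN-L-WD, with no overlap. Orm1 fell 2.07-fold (log2 fold change -1.05 ± 0.33 SE, adjusted p = 0.0241). Its fall in DEN-L-CD was of like size but under the 2-fold limit (-0.98, adjusted p = 0.0365). Orm1 was lowest in tumors, at 188 to 564 CPM with a median of 287, below nonDEN-L-CD by a log2 fold change of -1.44 (adjusted p = 0.000295). Without any of nonDEN-L-CD 2 or 3 and nonDEN-L-WD 1, 2 or 3, the call in WD liver was lost (-1.04 to -0.81, on the log2 scale, adjusted p = 0.0538 to 0.133).

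Orm2 kept the split of the serum amyloids. It was at 7.61, 82.4 and 94.6 CPM in nonDEN-L-CD, so that replicate 1 lay below each WD liver (12.1 to 20.6 CPM). Orm2 fell in DEN-L-CD, where it was at 21.6, 10.4, 7.10 and 9.53 CPM (log2 fold change -2.33 ± 0.74 SE, adjusted p = 0.0278), and did not pass the test in nonDEN-L-WD (-1.89 ± 0.73 SE, adjusted p = 0.0634). The call in DEN-L-CD was lost without any of nonDEN-L-CD 2 or 3 and DEN-L-CD 2, 3 or 4 (-2.27 to -1.89, adjusted p = 0.064 to 0.12).

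In tissue beside tumors Orm2 ran from 17.9 to 119 CPM with a median of 25.3, and in tumors from 10.1 to 55.8 with a median of 14.7. No difference of Orm2 between these tissues and DEN-L-CD or nonDEN-L-WD passed the test, with 1.53 for tissue beside tumors over DEN-L-CD (adjusted p = 0.12) and -0.52 for tumors against DEN-PT-WD (adjusted p = 0.468).

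Orm3, whose upstream stretch is so like that of Orm2, rose in DEN-PT-WD, and whether the 2 genes differ in their change was not tested. It was at 1.23, 1.58 and 4.92 CPM in nonDEN-L-CD, at 4.08 to 5.14 in nonDEN-L-WD and at 1.71 to 3.26 in DEN-L-CD. Beside tumors (DEN-PT-WD) it ran from 1.62 to 28.0 CPM with a median of 10.4, and in 7 of the 8 libraries it was above the highest liver library. Orm3 rose in DEN-PT-WD against nonDEN-L-CD (log2 fold change 2.15 ± 0.57 SE, adjusted p = 0.00405; 3.02 without nonDEN-L-CD 3) and against DEN-L-CD (2.13 ± 0.51 SE, adjusted p = 0.011). Against nonDEN-L-WD the difference was 1.31 (adjusted p = 0.068).

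Tumors did not share this level of Orm3. In DEN-T-WD it was at 2.73 to 8.05 CPM with a median of 3.84, a 2.64-fold fall against DEN-PT-WD (log2 fold change -1.40 ± 0.41 SE, adjusted p = 0.00924). Within libraries, Orm3 reached 0.0248 of the TPM of Orm1 at the median of DEN-PT-WD, against medians of 0.0023 and 0.0118 in nonDEN livers on CD and WD, 0.00611 in DEN-L-CD and 0.0136 in DEN-T-WD. Summing the 3 Orm genes turned the direction of the comparison with nonDEN-L-CD (-0.83), since the sum is mostly Orm1.

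Lcn2 was the member set apart by tumors. It encodes lipocalin 2, which binds bacterial siderophores and so withholds iron, and is made by hepatocytes, epithelia and neutrophils. In DEN-T-WD it was at 273, 245, 230, 506, 308 and 517 CPM, more than in any library of another group. DEN-PT-WD ran from 16.3 to 204 CPM with a median of 52.3. Lcn2 rose 4.45-fold in tumors over the tissue beside them (log2 fold change 2.15 ± 0.61 SE, adjusted p = 0.00801).

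The steps below that level were less firm. Lcn2 was at 8.77, 15.1, 13.3 and 20.3 CPM in nonDEN-L-WD and at 20.6, 5.00, 3.99 and 61.4 CPM in DEN-L-CD. Tumors exceeded these livers 24.1-fold (4.59 ± 0.90 SE, adjusted p = 0.000233) and 15.2-fold (3.93 ± 0.87 SE, adjusted p = 0.00082), with no overlap. The second was 35.0-fold (5.13) without DEN-L-CD 4, which held the 61.4 CPM. DEN-PT-WD exceeded nonDEN-L-WD 5.42-fold (2.44 ± 0.79 SE, adjusted p = 0.0448), a call that was lost without any of 12 libraries (2.05 to 2.65, adjusted p = 0.0507 to 0.117): nonDEN-L-CD 2, nonDEN-L-WD 1 to 4, DEN-L-CD 1, DEN-PT-WD 3, 4, 5 and 8, and DEN-T-WD 1 and 2. DEN-PT-WD against DEN-L-CD gave 1.78 (adjusted p = 0.13).

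Lcn2 also carried the split of nonDEN-L-CD. Its libraries held 6.93, 147 and 218 CPM, so that tumors lay above all 3 while the difference did not pass the test (log2 fold change 1.48, 95% interval -0.28 to 3.25, adjusted p = 0.147). Lcn2 fell from nonDEN-L-CD to nonDEN-L-WD (-3.11 ± 0.90 SE, adjusted p = 0.0152), a call lost without nonDEN-L-CD 3 (-2.42, adjusted p = 0.0845). Its fall in DEN-L-CD lay at the limit (-2.44, adjusted p = 0.05), a call that did not hold without any of 20 of the 25 libraries (-2.45 to -1.76, adjusted p = 0.0513 to 0.224). The call held without nonDEN-L-CD 1, DEN-L-CD 4 (-3.65), DEN-PT-WD 6, DEN-PT-WD 8 or DEN-T-WD 5.

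**Figure D2:**
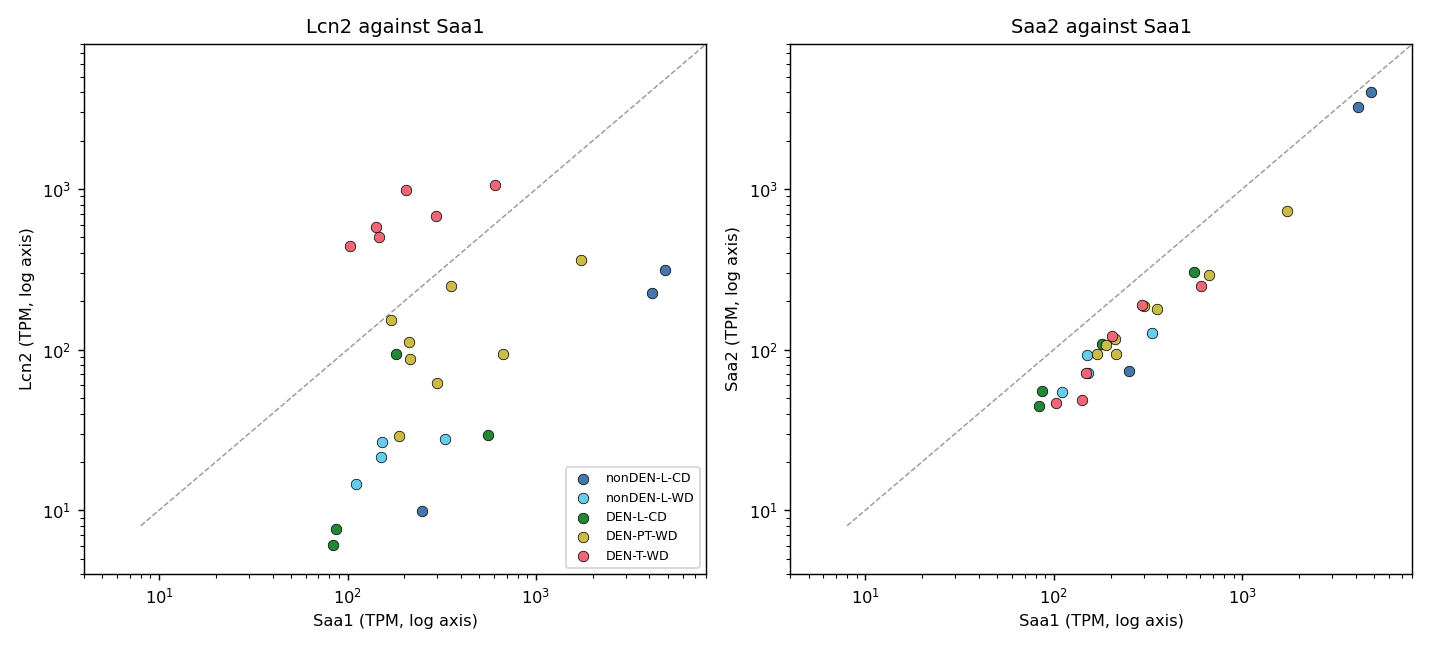
TPM of Lcn2 (left) and of Saa2 (right) against TPM of Saa1 in the 25 libraries, both axes on a log scale, colored by group, with a dashed line where the 2 are equal. The 6 tumors lie above the line for Lcn2, at 1.76 to 4.80 times Saa1, and no other library does.

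Set against Saa1 within a library, Lcn2 separated the tumors without any overlap. Lcn2 was at 1.76 to 4.80 times the TPM of Saa1 in DEN-T-WD and at 0.142 to 0.903 times in DEN-PT-WD. In the livers it was at 0.0836 to 0.176 times for nonDEN-L-WD, 0.0529 to 0.523 for DEN-L-CD and 0.0394 to 0.065 for nonDEN-L-CD. The 3 nonDEN-L-CD libraries, so unlike in level, were close to each other in this ratio and at its lower end. Over the 25 libraries, r between log2 CPM of Lcn2 and Saa1 was 0.31, and r of their deviations from group means was 0.76 (libraries share depth scaling and tissue).

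Haptoglobin, which captures free hemoglobin, was the most abundant member by mean TPM in each group. Hp was at 2401, 4654 and 4849 CPM in nonDEN-L-CD and at 1649, 1334, 1757 and 2500 CPM in nonDEN-L-WD, a 2.19-fold fall (log2 fold change -1.13 ± 0.26 SE, adjusted p = 0.00346) that was under 2-fold without nonDEN-L-CD 3 (-0.96, adjusted p = 0.0267). In DEN-L-CD it was at 2799, 1537, 1361 and 1865 CPM, a log2 fold change of -1.07 (adjusted p = 0.00528). Without any of nonDEN-L-CD 2 or 3 and DEN-L-CD 2 or 3 that fall was under 2-fold (-0.98 to -0.90, adjusted p = 0.0212 to 0.0397). Hp ran from 2089 to 3330 CPM in DEN-T-WD and from 1782 to 3068 in DEN-PT-WD, and their difference did not pass the test (0.22, 95% interval -0.16 to 0.60, adjusted p = 0.372). Tumors were 1.49-fold above nonDEN-L-WD (0.57 ± 0.22 SE, adjusted p = 0.0388), which is under the 2-fold limit.

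Apcs, the pentraxin, rose in tumors over the tissue beside them by a smaller factor than Lcn2, but not over nonDEN-L-CD. It was at 161, 223, 157, 255, 54.6 and 293 CPM in DEN-T-WD, with the low value in DEN-T-WD 5, the library of low hepatocyte markers. DEN-PT-WD ran from 51.9 to 155 CPM with a median of 88.5, so that 5 of the 6 tumors were above each of the 8. Apcs was 2.11-fold higher in tumors (log2 fold change 1.08 ± 0.36 SE, adjusted p = 0.0219), and without any of DEN-PT-WD 1, 5 or 6 and DEN-T-WD 4 or 6 the call was lost (0.91 to 0.99, adjusted p = 0.0414 to 0.0626).

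Apcs was at 54.9, 42.8, 53.3 and 125 CPM in nonDEN-L-WD and at 124, 67.5, 64.5 and 72.8 CPM in DEN-L-CD. Tumors rose over both, by 1.46 ± 0.46 SE (adjusted p = 0.0107) and 1.21 ± 0.45 SE (adjusted p = 0.0309), the second lost without any of DEN-L-CD 2, 3 or 4 and DEN-T-WD 4 or 6 (1.05 to 1.16, adjusted p = 0.0566 to 0.0823). In nonDEN-L-CD the libraries held 60.5, 287 and 211 CPM. Tumors overlapped these libraries, and the difference did not pass the test (log2 fold change 0.03 ± 0.48 SE, adjusted p = 0.96). WD liver was lower than nonDEN-L-CD (log2 fold change -1.43 ± 0.51 SE, adjusted p = 0.0461). That call was lost without any of 14 libraries (-1.43 to -0.97, adjusted p = 0.0502 to 0.272): nonDEN-L-CD 2 and 3, nonDEN-L-WD 1, 2 and 3, DEN-L-CD 2, 3 and 4, DEN-PT-WD 2, 4 and 7, and DEN-T-WD 1, 2 and 3.

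Socs3, the feedback inhibitor of the interleukin 6 receptor signal, gave the smallest adjusted p of the 10 in both comparisons of diet and carcinogen with untreated control liver. It was at 13.2, 40.8 and 44.6 CPM in nonDEN-L-CD and at 2.43, 3.96, 4.80 and 5.89 CPM in nonDEN-L-WD, with no overlap. Socs3 was 7.71-fold lower (log2 fold change -2.95 ± 0.38 SE, adjusted p = 1.61e-05). DEN-L-CD libraries held 16.6, 9.75, 8.29 and 6.39 CPM, a log2 fold change of -1.68 ± 0.36 SE (adjusted p = 0.00218), with 1 library above nonDEN-L-CD 1.

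DEN-PT-WD held 3.91 to 10.7 CPM of Socs3 with a median of 6.53, and DEN-T-WD 7.35 to 10.1 CPM with a median of 8.58. Both were below each library of nonDEN-L-CD (-2.14, adjusted p = 8.4e-06, and -1.93, adjusted p = 3.09e-05). Among the other groups, Socs3 was lowest in nonDEN-L-WD: tumors exceeded it 2.02-fold without overlap (1.02 ± 0.33 SE, adjusted p = 0.0135), and DEN-L-CD gave 1.27 without passing the test (adjusted p = 0.0879). The call in tumors was lost without any of nonDEN-L-WD 1 or 2 and DEN-T-WD 4 or 6 (0.82 to 1.00, adjusted p = 0.0217 to 0.0589).

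**Figure D3:**
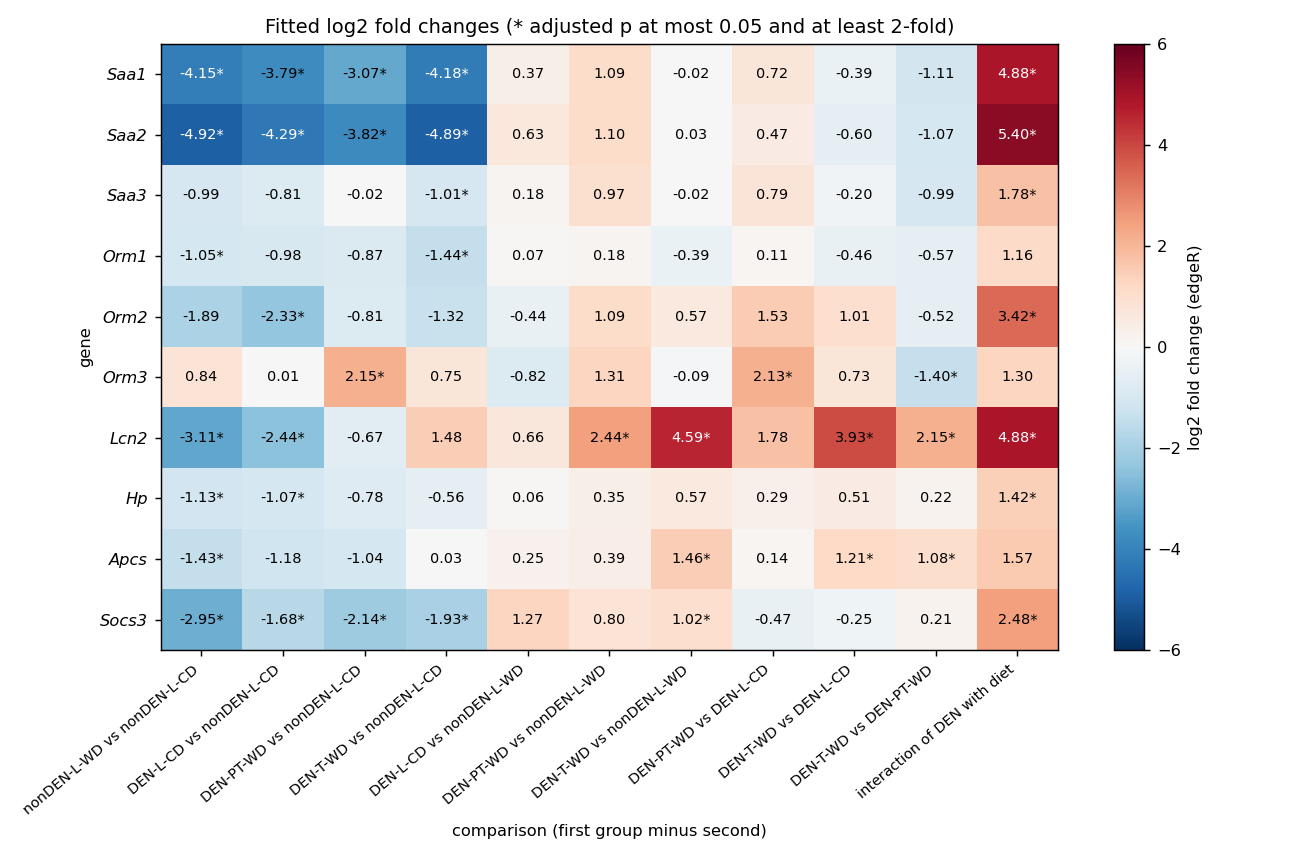
Fitted log2 fold changes of the 10 members (rows) in 10 comparisons of 2 groups and in the DEN by diet interaction (columns), with the first group minus the second, colored from blue (lower) to red (higher). Asterisks mark an adjusted p of at most 0.05 and at least 2-fold. The first 4 columns, which share nonDEN-L-CD, hold most of the falls, and the row of Lcn2 is positive where tumors are the first group.

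Counted over the members, 7 of 10 fell in nonDEN-L-WD against nonDEN-L-CD (median log2 fold change -1.66), where 2.04% of all genes tested fell (median over all genes 0.01). In DEN-L-CD against the same livers 6 of 10 fell (median -1.43), against 1.93% of all genes. In DEN-PT-WD 3 fell and 1 rose, against 3.08% and 10.2% of all genes, and in DEN-T-WD 5 fell, against 5.82%. These 4 counts share the 3 nonDEN-L-CD libraries and are not independent.

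All 4 counts depended on which nonDEN-L-CD libraries were fitted. Without replicate 1 they were 9, 9, 7 and 6. With replicate 1 as the lone library, counts of calls have too little power to be read. The log2 fold changes were then -1.62 for Socs3 in nonDEN-L-WD and 3.21 for Orm3 in DEN-PT-WD. In DEN-T-WD they were 5.64 for Lcn2, -0.79 for Saa1 and -0.61 for Socs3. Without replicate 3 the count in nonDEN-L-WD was 3, and in DEN-L-CD it was 3 without nonDEN-L-CD 2 or 3 or DEN-L-CD 2 or 3. In DEN-PT-WD it was 7 also without DEN-PT-WD 8.

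Away from nonDEN-L-CD, fewer members were called. Between DEN-L-CD and nonDEN-L-WD, edgeR called 0 of 10 members, against 0.250% of all genes, with 1 at an unadjusted p under 0.05 and 1 called by DESeq2. DEN-PT-WD against nonDEN-L-WD gave 1 rise (Lcn2; 2.36% of all genes rose), with 10 of 10 fitted values above 0, a median log2 fold change of 1.03 (0.003 over all genes) and 4 members at an unadjusted p under 0.05. Against DEN-L-CD it gave 1 rise (Orm3; 1.52%), with a median of 0.60 (0.02 over all genes). DEN-T-WD gave 3 rises against nonDEN-L-WD (Lcn2, Apcs and Socs3; 10.4%) and 2 against DEN-L-CD (Lcn2 and Apcs; 9.68%). Against DEN-PT-WD, 2 members rose in tumors (4.81% of all genes) and 1 fell (3.09%). The tumor counts are of 10 genes only and stand against backgrounds of 3.09% to 10.4%.

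The interaction asks whether the step from CD to WD differed between DEN and nonDEN mice, with tissue beside tumors standing for DEN liver on WD. It was called for 7 of 10 members, all in the positive direction (1.57% of all genes): Saa1 4.88 ± 1.21 SE (adjusted p = 0.0152), Saa2 5.40 ± 1.23 (0.00886), Lcn2 4.88 ± 1.18 (0.0129), Orm2 3.42 ± 0.97 (0.0309), Socs3 2.48 ± 0.48 (0.00325), Saa3 1.78 ± 0.52 (0.0371) and Hp 1.42 ± 0.34 (0.0117). The term takes in nonDEN-L-CD. With replicate 1 as its lone library the term was 1.48 for Saa1, 0.50 for Saa2, 0.70 for Lcn2 and 0.39 for Orm2. It was then 1.14 for Socs3, 0.39 for Saa3 and 0.67 for Hp. Leaving out other libraries moved it by over 1.5 times for Saa1 (5.89 without DEN-L-CD 1, 4.17 without DEN-PT-WD 8), Saa2 (6.36 without DEN-L-CD 1, 4.79 without nonDEN-L-CD 3), Lcn2 (6.09 without DEN-L-CD 4, 4.20 without nonDEN-L-CD 3) and Orm2 (2.81 without DEN-PT-WD 8), each still called.

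The call of Orm2 in the interaction was lost without any of nonDEN-L-CD 2 or 3, nonDEN-L-WD 1 or 3 and DEN-L-CD 2, 3 or 4 (2.97 to 3.45, adjusted p = 0.0567 to 0.0976). That of Saa3 was lost without any of nonDEN-L-CD 2 or 3, nonDEN-L-WD 1, 3 or 4, DEN-L-CD 3 or 4 and DEN-PT-WD 3 or 8 (1.40 to 1.78, adjusted p = 0.052 to 0.143).

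Other settings ended some calls of members. In nonDEN-L-WD against nonDEN-L-CD, limma on log2(TPM + 1) ended the calls of Apcs (-1.16, adjusted p = 0.127) and Lcn2 (adjusted p = 0.152). It also ended those of Orm1 (-0.87, adjusted p = 0.0626) and Hp (-0.96, under 2-fold). The call of Apcs there also ended with no filter on low counts and with a fit to the compared groups alone (adjusted p = 0.0711 and 0.0887). In DEN-L-CD, that of Lcn2 ended with DESeq2's size factors, with no filter, with the compared groups alone and with limma (-2.45 to -2.16, adjusted p = 0.0503 to 0.145), and that of Orm2 with limma (-1.74, adjusted p = 0.120).

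The rise of Lcn2 in tissue beside tumors over nonDEN-L-WD ended with no filter (2.44, adjusted p = 0.0609). Summed over the Orm genes, the value for Orm3 was 0.20 in that tissue against DEN-L-CD (adjusted p = 0.688) and -0.58 in tumors against it (adjusted p = 0.0712; limma on log2(TPM + 1) gave -0.97, under 2-fold). In tumors against nonDEN-L-CD, the call of Saa3 ended with the compared groups alone (adjusted p = 0.0522) and with limma (-0.35, adjusted p = 0.413), and that of Orm1 with limma (-0.98, under 2-fold). In the interaction, the call of Orm2 ended with limma (2.73, adjusted p = 0.0638) and with summed paralogs (1.28, adjusted p = 0.0782), and that of Saa3 with no filter (1.76, adjusted p = 0.0556).

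Many other positive acute phase genes also fell against nonDEN-L-CD, and a few rose. Of 22 such genes, 12 fell and 0 rose in nonDEN-L-WD (median log2 fold change -1.16), where 2.04% of all genes fell. In DEN-L-CD 9 fell (median -0.99), against 1.93%. In DEN-PT-WD 10 fell and 1 rose (Il1rn), against 3.08% and 10.2% of all genes. In DEN-T-WD 10 fell and 3 rose (Cp, Il1rn and Cd14), against 5.82% and 14.5%. Metallothionein Mt2, which binds zinc, was at 36.3, 711 and 720 CPM in nonDEN-L-CD replicates 1 to 3 and at 2.02 to 11.4 in nonDEN-L-WD (-6.09 ± 1.18 SE, adjusted p = 0.00093). Its sister Mt1 was at -4.44 (-5.31 without nonDEN-L-WD 4) and the metalloreductase Steap4 at -2.30 (adjusted p = 0.00262 and 2.54e-05), and in DEN-L-CD Serpina3n, a secreted protease inhibitor, was at -2.29 (adjusted p = 0.00182). With nonDEN-L-CD 1 as the lone library of its group, 0 of the 22 were called by edgeR in either comparison, with 1 at an unadjusted p under 0.05 in each (DESeq2 was not run in that setting), and Mt2 was at -2.33 in nonDEN-L-WD (adjusted p = 0.374).

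Of 26 tested genes of interleukin 6 and interleukin 1 signalling, 6 fell in nonDEN-L-WD (2.04% of all genes) and 7 in DEN-L-CD (1.93%), and none rose. The interleukin 1 receptor gene Il1r1 was at 96.8, 284 and 285 CPM in nonDEN-L-CD against 29.4 to 60.7 in nonDEN-L-WD (-2.39 ± 0.39 SE, adjusted p = 0.000179). Bcl3, an NF-kB cofactor, was at -2.20 and Junb at -1.87 in nonDEN-L-WD (adjusted p = 1.27e-06 and 0.000645), and the oncostatin M receptor gene Osmr was at -1.61 in DEN-L-CD (adjusted p = 0.000927). With the lone library, the call of Bcl3 in nonDEN-L-WD stayed (-1.39, adjusted p = 0.00563), as the 1 call of this list there, and that of Il1r1 did not (-1.19, adjusted p = 0.204). In DEN-L-CD, edgeR called 0 of the 27 genes tested in that setting, with 12 at an unadjusted p under 0.05 (DESeq2 was not run in it), and Osmr was at -0.73 (adjusted p = 0.409).

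Negative acute phase genes, whose products fall in plasma during the response, were seldom called. Whether this list of 11 differs from all genes or from the positive list was not tested. Against nonDEN-L-CD, 0 of 11 were called by edgeR in nonDEN-L-WD (0 at an unadjusted p under 0.05, 0 called by DESeq2), where 5.28% of all genes were called, and 1 rose in DEN-L-CD, where 2.76% of all genes did: Serpina6 for the corticosteroid carrier (1.36, adjusted p = 0.0161). That call was lost without nonDEN-L-CD 2 or 3 (1.30 to 1.33, adjusted p = 0.0571 to 0.0747). With the lone library Serpina6 was at 1.21. Among 10 glucocorticoid targets, 2 fell in nonDEN-L-WD (2.04% of all genes), Fkbp5 and Zbtb16 (-1.98 and -1.32, adjusted p = 0.000417 and 0.0312), and 1, Fkbp5, in DEN-L-CD (1.93% of all genes), at -2.04 (adjusted p = 0.000305). The call of Zbtb16 was lost without any of nonDEN-L-CD 2 or 3 and nonDEN-L-WD 1, 2 or 3 (-1.37 to -1.10, adjusted p = 0.054 to 0.129). With the lone library Fkbp5 was at -1.22 in nonDEN-L-WD and -1.28 in DEN-L-CD, and Zbtb16 at -0.89 in nonDEN-L-WD.

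**Figure D4:**
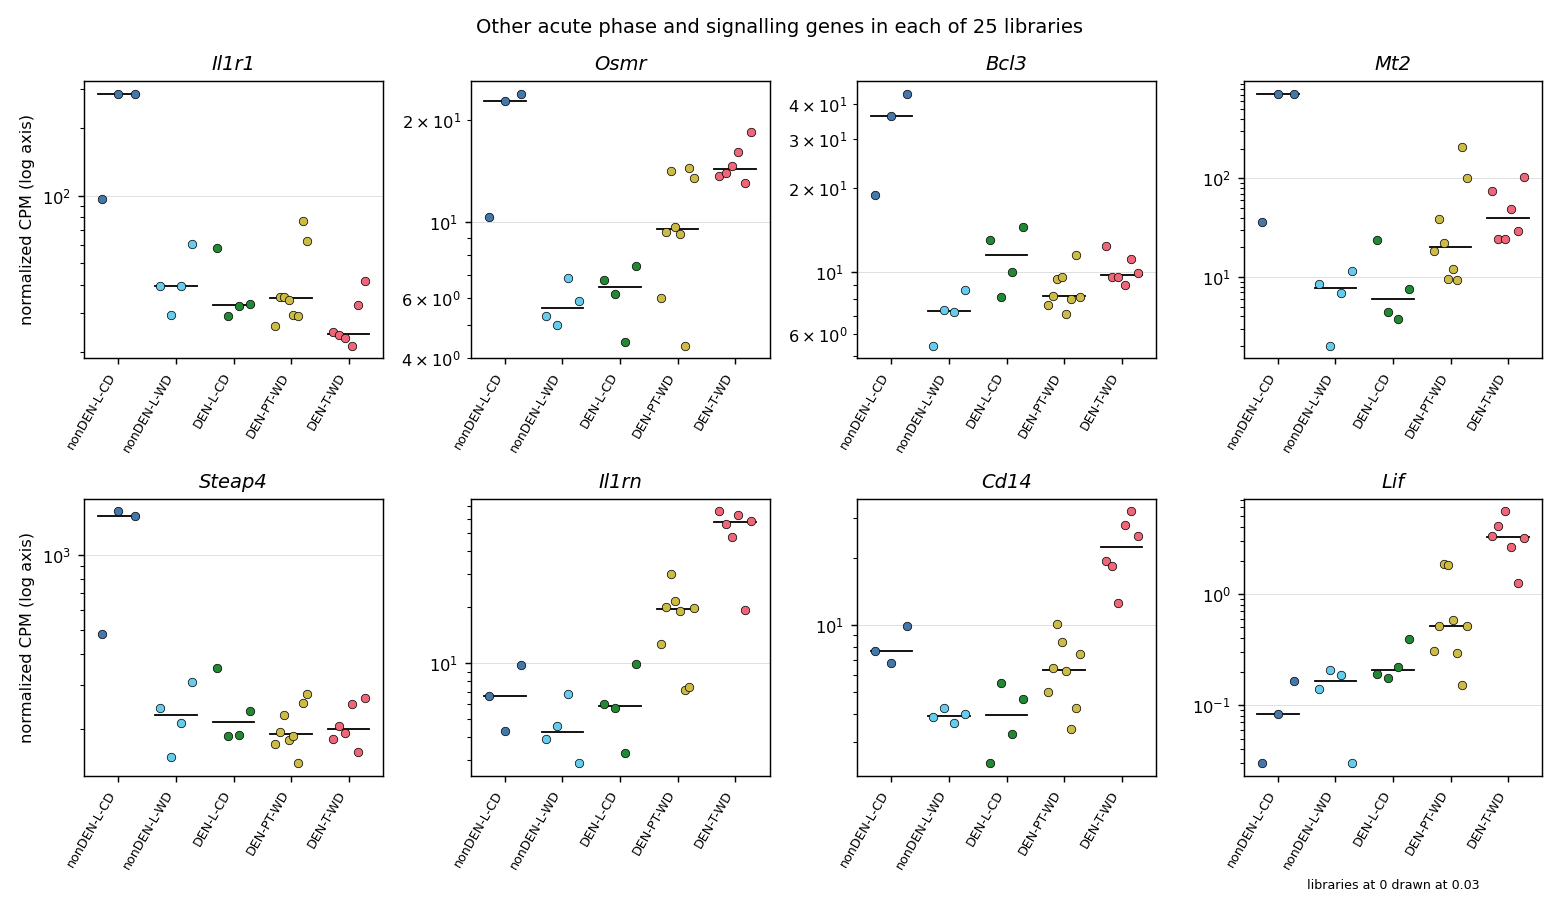
Normalized CPM (log axis) of 8 genes of the acute phase and interleukin signalling lists in the 25 libraries, 1 point a library, with a bar at the group median; libraries with no Lif count are drawn at 0.03. Il1r1, Mt2 and Steap4 are highest in nonDEN-L-CD replicates 2 and 3, while Il1rn, Cd14 and Lif have their highest median in DEN-T-WD.

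Between tumors and the tissue beside them few genes of these lists were called. Of the 22 positive acute phase genes, 2 rose and 1 fell, against 4.81% and 3.09% of all genes, so that the list is described by its members only: Cd14, a receptor for bacterial lipopolysaccharide (1.82 ± 0.22 SE, adjusted p = 2.17e-06), and Il1rn, the interleukin 1 receptor antagonist (1.58 ± 0.31 SE, adjusted p = 0.000352), rose. Hamp, which encodes the iron hormone hepcidin and is induced by interleukin 6, fell (-1.30 ± 0.28 SE, adjusted p = 0.000943). Cd14 was at 12.5 to 32.2 CPM in tumors and 3.43 to 10.1 beside them.

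Of the 26 signalling genes 1 rose in tumors over DEN-PT-WD, a share below the 4.81% of all genes: the cytokine gene Lif (2.14 ± 0.47 SE, adjusted p = 0.00102), at 1.25 to 5.55 CPM against 0.152 to 1.86. On log2(TPM + 1) limma gave 0.98 for Lif, under 2-fold, and so ended the call. Against nonDEN-L-WD, where 10.4% of all genes rose and 5.24% fell, 3 of the 26 rose, with Lif at 4.58 and Osmr at 1.38 (adjusted p = 2.53e-05 and 0.000282), and 2 fell, with Il1rap, the shared subunit of the interleukin 1 receptor, at -1.27 (adjusted p = 3.9e-07; limma on log2(TPM + 1) gave -0.93, under 2-fold). Of the 22 positive acute phase genes 4 rose and 1 fell in that comparison, with Il1rn at 3.51, Mt2 at 2.82 and Cd14 at 2.51 (adjusted p = 1.22e-06, 0.0192 and 4.78e-07), of which Mt2 lost its call without nonDEN-L-WD 2 (2.51, adjusted p = 0.0589).

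The negative acute phase list moved both ways in tumors. Against DEN-PT-WD 2 of 11 rose and 2 fell (4.81% and 3.09% of all genes): the growth factor gene Igf1 was at -1.30 and its carrier Igfals at -1.23 (adjusted p = 5.7e-07 and 1.21e-05), and Ahsg, for fetuin, at 1.14 (adjusted p = 0.000966). Against nonDEN-L-WD 3 rose and 2 fell (10.4% and 5.24% of all genes), with transferrin (Trf) at 1.43, Igf1 at -1.36 and Igfals at -1.35 (adjusted p = 0.000147, 6.25e-07 and 8.45e-06), of which limma on log2(TPM + 1) put Igfals under 2-fold (-0.97). Of 10 glucocorticoid targets 3 fell against nonDEN-L-WD (5.24% of all genes), with Tat at -1.51, Tsc22d3 at -1.42 and Pck1 at -1.27 (adjusted p = 0.000282, 1.19e-05 and 3.66e-05), of which limma put Pck1 under 2-fold (-0.93).

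In tissue beside tumors against nonDEN-L-WD, 2 of the 22 positive acute phase genes and 1 of the 26 signalling genes rose, where 2.36% of all genes did. Il1rn rose (1.93 ± 0.40 SE, adjusted p = 0.00506), from 2.89 to 6.78 CPM to 7.15 to 30.1 CPM with no overlap, and Mt2 rose with an adjusted p of 0.0495 (2.87 ± 0.95 SE). Lif rose by 2.45 (adjusted p = 0.0283), from 0 to 0.205 CPM in WD liver. The call of Mt2 was lost without any of 18 libraries (2.08 to 3.18, adjusted p = 0.0513 to 0.113), all but nonDEN-L-CD 1, DEN-L-CD 1, DEN-PT-WD 1, 4, 5 and 6 and DEN-T-WD 5, and that of Lif without any of nonDEN-L-WD 1, 3 or 4 and DEN-PT-WD 3 or 4 (2.06 to 2.63, adjusted p = 0.0508 to 0.102). With the compared groups alone both calls ended (adjusted p = 0.0675 for Mt2 and 0.0635 for Lif), as did that of Mt2 with no filter (0.0679) and that of Lif with limma on log2(TPM + 1) (0.26, adjusted p = 0.239). Of the negative acute phase genes and of the glucocorticoid targets 0 were called by edgeR and 0 by DESeq2, with 2 of each at an unadjusted p under 0.05.

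Neutrophils themselves store lipocalin 2. Of 7 tested markers of a list of 10, against nonDEN-L-CD 5 fell in nonDEN-L-WD (2.04% of all genes), 3 in DEN-L-CD (1.93%), 5 in tissue beside tumors (3.08%) and 2 in tumors (5.82%), and none rose. Against nonDEN-L-WD 4 rose in tumors (10.4%), and the interaction was positive for 2 (1.57%). Between tumors and the tissue beside them 0 were called by edgeR and 0 by DESeq2, with 0 at an unadjusted p under 0.05. The 10 markers summed to 4.86, 13.6 and 17.8 CPM in nonDEN-L-CD and to 3.94 to 4.84 in nonDEN-L-WD. The sums were 5.25 to 11.5 CPM for DEN-L-CD, 3.55 to 10.3 for tissue beside tumors and 4.21 to 15.2 for tumors, with 2 of the 10 markers at 0 in each of the liver groups. The part of neutrophils in the levels of Lcn2 and the other members was not tested. Pancreas acinar markers, at 746, 0.208 and 302 summed CPM in nonDEN-L-CD replicates 1 to 3, did not follow the split of the members.

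Hepatocyte markers summed to 50058 to 86025 CPM in DEN-PT-WD, below 5 of the 6 tumors, and 1 of the 6 (Apoa1) rose in tumors over that tissue, where 4.81% of all genes rose, while the list's median log2 fold change was -0.19. Red blood cell transcripts summed to 384 to 504 CPM in nonDEN-L-CD and to 677 to 814 in nonDEN-L-WD, where 0 of 5 were called by edgeR or DESeq2 (5.28% of all genes by edgeR) and 4 had an unadjusted p under 0.05. Adipocyte markers summed to at least 13.0 CPM and a median of 17.2 in nonDEN-L-CD and to 39.9 to 70.6 in nonDEN-L-WD, where 2 of 6 rose (3.24% of all genes). Of 4 bile duct markers 1 fell there (Sox9; 2.04% of all genes) and 1, the same gene, rose in tumors over DEN-PT-WD (4.81%). The part of these cell types in the members' levels was not tested.

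Across the 25 libraries the genes most like each member are given by Pearson's r of log2 CPM, as a description. Saa1 was most like Il1r1 (0.90), Tifa (0.88) and Slc39a1 (0.87), and Saa2 most like Tifa (0.88), Il1r1 (0.88) and Ptpn1 (0.86). Orm1 was most like Zfp595 (0.87), Il1r1 (0.86) and Qsox1 (0.84), Orm2 like Itgb3 (0.79), Ccl6 (0.75) and Jam2 (0.71). Socs3 was nearest to Bcl3 (0.89), Tnip2 (0.89) and Arid5a (0.87).

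The remaining members had other partners. Hp was nearest to Mt1 (0.96), Mt2 (0.95) and the heme carrier Hpx (0.94), and Apcs to Cdkn2aipnl (0.88), Crip2 (0.87) and Hpx (0.86). Lcn2 was most like the keratin gene Krt18 (0.90), Tpst2 (0.90) and the cell cycle inhibitor gene Cdkn1a (0.90). Saa3 was nearest to Ifitm1 (0.78), Zfp937 (0.73) and Ctla2b (0.71), and Orm3 to Fabp7 (0.80), Znfx1 (0.77) and Extl2 (0.74). The points share 5 groups and the same scaling, and group differences enter each of these values.

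In tissue beside tumors 1 library was often the highest. DEN-PT-WD 8 was the highest of its 8 for Saa1 (620 CPM), Saa2 (246), Orm1 (902), Orm2 (119), Orm3 (28.0), Lcn2 (204), Hp (3068) and Apcs (155), and not for Saa3 or Socs3. The next library was near it for Hp (2878 CPM in DEN-PT-WD 7) and Apcs (136 in DEN-PT-WD 3). Its summed macrophage and Kupffer cell markers were the highest of the series, at 364 CPM, and its neutrophil markers the highest of its group, at 10.3 CPM, and their part in its levels was not tested.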

How the data were processed

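RNA from 25 samples was sequenced as poly-A libraries. The authors checked reads with FastQC, aligned them to GRCm38 with STAR and ran RSEM, and deposited per sample the expected count and TPM of each gene; for STAR and RSEM no version, and for the annotation and strand no release or setting, is given in the sources used here. Reads from overlapping genes on opposite strands therefore may not be told apart. The deposited TPM values are length-corrected shares, used for levels between genes.

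Expected counts were rounded and fitted with edgeR 4.0.16 (R 4.3.3; quasi-likelihood test, TMM, minimum count 10), all 5 groups fitted at once, and p-values were adjusted by Benjamini-Hochberg across 15625 genes. The study's thresholds were kept: a change of 1 or more on the log2 scale, up or down, with an adjusted p no higher than 0.05. Levels are TMM-scaled CPM. Alternatives were DESeq2 1.42.0 (the study's tool), its size factors, no filter, only the groups compared, a replicate block, limma 3.58.1 on log2(TPM + 1), summed paralogs, and each library left out. In counts simulated for WD against CD in nonDEN livers, 196 of 200 changed genes were recovered among 15365.

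The 10 members and the gene lists were chosen with earlier results of these data known. Named were all members, up to 3 called genes with the largest change per pathway list and comparison, and the 3 genes most correlated with each member among genes with a mean log2 CPM of at least 1. Symbols were matched for 48349 of 48795 identifiers. No library was left out, and no 2 libraries of a group agreed within counting noise. Intervals are 95% intervals of the fit. Library depth limits the genes of few counts.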

Additional observations from a re-analysis of the deposited data

Results flagged for a closer look

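Dixon's test was run on the CPM of each member in the groups of 4 to 8 libraries. In 10 of 40 tests the distance of 1 library to its nearest neighbour was over the 95% limit. DEN-PT-WD 8 was the highest library for 5 of these, at 620 CPM for Saa1, 246 for Saa2, 902 for Orm1, 119 for Orm2 and 28.0 for Orm3. In DEN-T-WD 6, Saa1 was at 188 CPM and Orm3 at 8.05. In nonDEN-L-WD 4, Saa1 was at 156 CPM and Apcs at 125, and in DEN-L-CD 1 Apcs was at 124 CPM. The 3 nonDEN-L-CD libraries are too few for this test. The tests share libraries and members that varied together, and CPM was not put on a log scale. Their count is therefore not set against a rate of chance.

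The step from CD to WD differed between DEN mice (tissue beside tumors on WD) and nonDEN mice, by the interaction term of the edgeR fit, for 7 members: on the log2 scale by 4.88 for Saa1, 5.40 for Saa2, 1.78 for Saa3, 3.42 for Orm2, 4.88 for Lcn2, 1.42 for Hp and 2.48 for Socs3 (adjusted p from 0.00325 to 0.0371). The term takes in nonDEN-L-CD. With replicate 1 as the lone library of that group it ran from 0.39 for Orm2 and Saa3 to 1.48 for Saa1.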

How the results depend on the processing

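Of 3003 recomputed log2 fold changes, 2769 kept their direction and side of the threshold, 198 lost their call, 25 gained one and 11 turned direction. Of 363 recounts of called members, 322 stayed within 1.5 times the reported count. A fit with nonDEN-L-CD replicate 1 as the lone library of its group was chosen after the values were seen. It assumes that this library varies like the others, and with 1 library its counts of calls have too little power to be read. Directions turned there in nonDEN-L-WD to 0.20 for Apcs, 1.06 for Lcn2, 1.13 for Orm2 and 0.39 for Saa3, in DEN-L-CD to 1.73 for Lcn2, 0.69 for Orm2 and 0.59 for Saa2, in DEN-PT-WD to 0.31 for Saa1 and 1.05 for Saa2, and in tumors to 0.36 for Saa3. Summed paralogs gave -0.83 for Orm3 in DEN-PT-WD against nonDEN-L-CD and 0 members in DEN-PT-WD against DEN-L-CD, since each sum is mostly Orm1. Limma on log2(TPM + 1), which moved the median of all genes by up to 0.355, gave 3 members in nonDEN-L-WD against nonDEN-L-CD, 2 in DEN-PT-WD against nonDEN-L-WD and 4 in DEN-PT-WD against DEN-L-CD. DESeq2 gave 1 in DEN-L-CD against nonDEN-L-WD and 2 in DEN-PT-WD against nonDEN-L-WD, where no filter gave 0. The cause of these changes was not tested.

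With 1 library left out, counts against nonDEN-L-CD ran from 3 to 9 for nonDEN-L-WD, 3 to 9 for DEN-L-CD, 4 to 7 for tissue beside tumors and 4 to 6 for tumors. Against nonDEN-L-WD they ran from 0 to 1 for DEN-L-CD, 0 to 2 for tissue beside tumors and 2 to 3 for tumors. Against DEN-L-CD they ran from 1 to 2 for either tissue of the DEN mice on WD, between these tissues from 2 to 4, and for the interaction from 5 to 9.

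Deviations of same-numbered samples had an r over 0.1 in every pair in 0 of 10 comparisons (mean r -0.18 to 0.15). The nearest was DEN-L-CD against nonDEN-L-CD, whose 3 pairs were all positive, from 0.052 to 0.307. The numbers were therefore not taken to pair the samples. Tumors and the tissue beside them may still come from the same mice, which the fit does not take into account. With the replicate block, members called were 0 in DEN-PT-WD against nonDEN-L-WD and 4 for the interaction, and the other counts stayed within 1.5 times. The interaction calls not made with the block were those of Saa1 (4.02, adjusted p = 0.0559), Orm2 (2.43, adjusted p = 0.0983) and Saa3 (1.56, adjusted p = 0.0798). Others not made with it were Lcn2 in DEN-L-CD against nonDEN-L-CD (-2.72, adjusted p = 0.0548), Lcn2 and Mt2 in tissue beside tumors against nonDEN-L-WD (2.09 and 1.47, adjusted p = 0.106 and 0.284) and Saa3 in tumors against nonDEN-L-CD (-0.82, adjusted p = 0.0761). Depth limits Orm3, Saa3 and Socs3 more than the abundant members, since their values rest on fewer counts.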
